A study of Rattus norvegicus with 8 samples.

Results

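The genes described here are those of the major histocompatibility complex (MHC), of antigen processing and of the interferon response, measured in the enamel organ of the rat incisor as it passes from the secretory to the maturation stage. Members were chosen by symbol alone: every RT1 gene (RT1 is the MHC of the rat), the immunoproteasome subunits Psmb8, Psmb9 and Psmb10 and the proteasome activators Psme1 and Psme2, the peptide transporter genes Tap1, Tap2 and Tapbp, the Irf and Stat transcription factors, the Ifi, Ifit, Ifitm, Gbp, Oas and Mx genes, and B2m, Cd74, Isg15 and Ciita. This rule found 94 probes with 89 different symbols among the 22523 probes of the array, which carry 21558 symbols. No probe carried the symbol Isg15 or Ciita.

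Each of 4 male Wistar Hannover rats (Wistar in the sample labels), 4 weeks of age, gave 1 secretory-stage and 1 maturation-stage sample, and the total RNA of each sample was read on its own Illumina RatRef-12 v1 array. Neither group carries an engineered allele or a treatment, and the stages follow each other along the ever-growing incisor. The samples were cell layers collected from frozen, dried mandibles after the bone had been taken off, so each holds ameloblasts with the other cells of the enamel organ and with what adhered to it. In such bulk samples, more cells of a type cannot be told apart from more RNA per cell. The stage labels were checked against marker genes. Among 5 genes listed as secretory ameloblast markers, Enam, Mmp20 and Dspp were called lower in the maturation stage, Dspp by at least 34.0-fold. Amelx (1.44-fold lower) and Ambn (1.29-fold lower) were not called. All 5 probes of the maturation ameloblast markers Klk4, Slc24a4, Car6 and Wdr72 were higher. The maturation arrays of rats 1 and 4 kept more of the secretory signal. Enam read 9.08, 5.17, 5.53 and 8.22 in the maturation stage of rats 1 to 4, against 11.94 to 12.03 in the secretory stage, and Mmp20 read 6.96, 5.92, 5.55 and 6.30, against 10.07 to 10.31 (log2 signals). Total signal per array ranged from 11881691 to 12046793 in the secretory stage and from 13355073 to 16122665 in the maturation stage. Precision is set by there being 4 arrays per stage.

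MHC class I molecules, built of a heavy chain and beta-2 microglobulin, show peptides cut by the proteasome and carried into the endoplasmic reticulum by the TAP transporter. Class II molecules, whose assembly needs the invariant chain Cd74, show peptides from endosomes and are carried mainly by macrophages, dendritic cells and B cells. Interferons act through Stat and Irf proteins, which bind short elements in the promoters of these genes, among them the interferon-stimulated response element (ISRE) of many antiviral genes, while class II promoters carry an X box and a Y box that lie next to each other.

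RefSeq promoters of the GRCr8 assembly, reaching from 250 bases before the transcription start to 50 bases from it on, were at hand for 79 of the 90 member genes that have a gene ID. They are shown first because the short elements they hold differ between the roles of the members. The letters CTGATTGG, the core of the Y box, were found on either strand in the promoters of 5 of the 7 class II members and of 11 of 27 class I members, against 3.75% of the 27457 genes with a promoter. These letters were chosen after the promoters had been seen. Below are the stretches around it in 4 class II genes, RT1-Da, RT1-Db1 and RT1-Ba, which rose, and RT1-DOa, for which no change was called. Each is written 5′ to 3′ on the strand of the gene and ends before its start, and capitals mark the Y box core.
RT1-Da, chr20:4515313-4515390, plus strand: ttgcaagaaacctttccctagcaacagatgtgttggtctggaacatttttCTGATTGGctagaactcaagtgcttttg
RT1-Db1, chr20:4560218-4560295, minus strand: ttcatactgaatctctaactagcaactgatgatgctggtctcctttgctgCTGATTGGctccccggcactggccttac
RT1-Ba, chr20:4576961-4577038, plus strand: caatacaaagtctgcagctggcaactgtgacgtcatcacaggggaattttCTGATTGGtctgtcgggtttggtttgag
RT1-DOa, chr20:4758506-4758583, minus strand: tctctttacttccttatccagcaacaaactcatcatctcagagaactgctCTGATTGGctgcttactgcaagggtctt

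The core GAAANNGAAA of the ISRE, searched on both strands, was held by 6 of 9 promoters of the processing and loading genes and by 14 of 24 promoters of the interferon-induced effectors, against 4.12% of all genes with a promoter. It was in 14.8% of the class I promoters, in 1 of 12 promoters of transcription factors (Irf7), and in no promoter of the 7 class II members. Psmb10, Tap1 and B2m are shown for the making of class I molecules, with the element in capitals. In Tap1 the match lies on the other strand, so that its complement is read here.
Psmb10, chr19:50743293-50743390, minus strand: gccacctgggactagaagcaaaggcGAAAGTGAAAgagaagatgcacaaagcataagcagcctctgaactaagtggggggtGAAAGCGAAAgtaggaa
Tap1, chr20:4668630-4668689, minus strand: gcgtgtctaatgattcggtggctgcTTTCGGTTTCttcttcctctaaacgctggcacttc
B2m, chr3:129549155-129549214, plus strand: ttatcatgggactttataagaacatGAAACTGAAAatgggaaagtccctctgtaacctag

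The next 4 promoters are those of a class I gene, RT1-S3, and of 3 effectors. RT1-S3 and Ifi27 rose in the maturation stage, Gbp2 did not pass the test and Ifit3 was not detected. Capitals mark the same element on either strand.
RT1-S3, chr20:2675391-2675450, plus strand: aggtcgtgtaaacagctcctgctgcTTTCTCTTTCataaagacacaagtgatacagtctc
Ifi27, chr6:128355118-128355262, plus strand: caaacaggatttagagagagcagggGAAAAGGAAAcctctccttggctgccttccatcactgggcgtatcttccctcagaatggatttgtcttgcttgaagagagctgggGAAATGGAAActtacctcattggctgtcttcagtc
Gbp2, chr2:234005671-234005726, plus strand: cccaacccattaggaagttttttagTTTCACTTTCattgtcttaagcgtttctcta
Ifit3, chr1:241527257-241527316, plus strand: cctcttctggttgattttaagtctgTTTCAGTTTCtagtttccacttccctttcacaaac

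The ISRE core was in 27.8% of the promoters of the 18 genes called higher below that have a promoter entry and in 32.8% of those of the 61 such genes not called. The Y box core was in 44.4% of the called and 16.4% of the other genes. All 8 called genes that hold it are RT1 genes. Its letters were chosen after the promoters had been seen, so these shares support nothing independently. The core of the gamma-activated site, TTCNNNGAA, was in 12.7% of the member promoters and 9.39% of all. These are matches of letters, of which overlapping ones were counted apart, and say nothing of whether a factor is bound.

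Values below are log2 signals after background correction and quantile normalization. They can be compared between arrays for 1 probe, and not between probes. A probe was called when its adjusted p (limma, Benjamini-Hochberg over all 22523 probes) was below 0.05 and its fold change at least 1.8, the thresholds of the study. Of the 94 member probes, 20 (21.3%) were called higher in the maturation stage, where 4.60% of all probes were called in that direction. None was called lower, where 3.15% of all probes were. Without the maturation array of rat 1 or that of rat 4, 18 or 19 were called higher and none lower. With no fold threshold, 44 members (46.8%) were higher by the adjusted p, beside 12.8% of all probes. By the same measure 3 were lower, beside 14.0% of all probes. The other 47 passed in neither direction, and the 3 that were lower were RT1-Ke4, Irf3 and Oas2. The 4 values of one stage lay wholly above those of the other for 43 members (45.7%), 40 of them higher in the maturation stage, beside 27.7% of all probes. The median log2 fold change was 0.20 over the members and -0.01 over all probes. Of the members, 48 were detected on all 8 arrays, 23 on some of them and 23 on none.

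**Figure D1:**
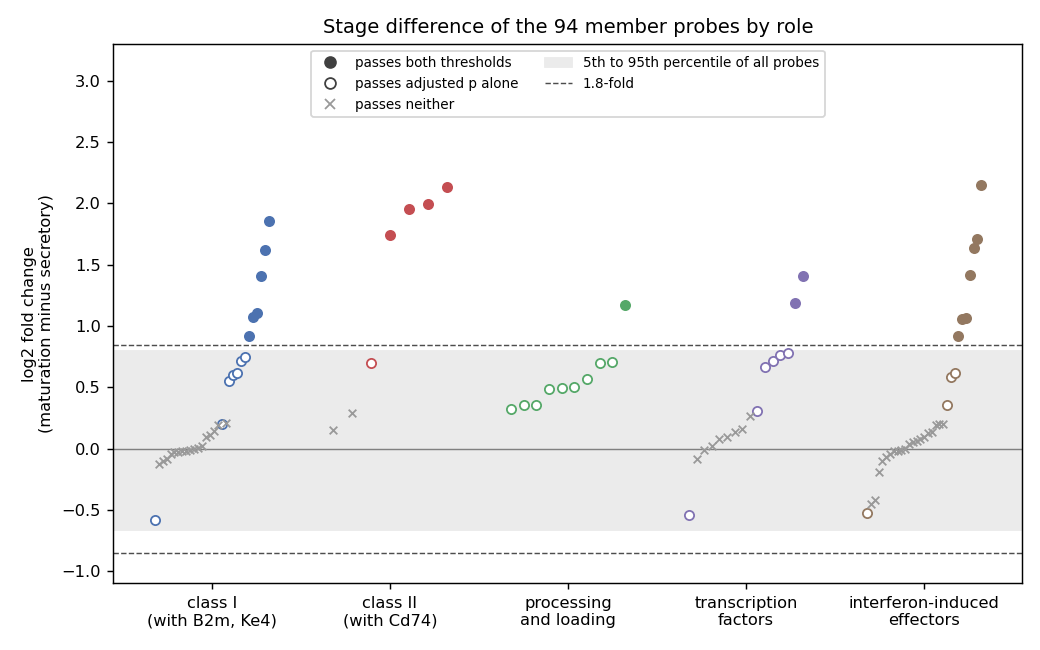
Log2 fold change (maturation minus secretory, vertical axis) of each of the 94 member probes, ordered by size within each role on the horizontal axis. Filled points passed both thresholds, open circles the adjusted p alone and crosses neither, the grey band spans the 5th to the 95th percentile of all probes (-0.66 to 0.80), and the dashed lines mark 1.8-fold. All 20 filled points lie above 0, 4 of the 7 class II probes are among them, and all 10 processing probes are filled or open points above 0.

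Among the members that passed the adjusted p, Stat5b (1.69-fold) and RT1-CE16 (1.68-fold) lay just below the fold threshold, and RT1-CE15 and Ifitm6 (both 1.89-fold) were the nearest above.

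Class II genes had the largest share of calls among the 5 roles. Of their 7 probes, 4 were called higher and 1 more passed by the adjusted p alone, with a median log2 fold change of 1.74 over the 7. RT1-Da encodes a chain of the class II molecule D. It stood at 11.59, 11.45, 11.93 and 11.76 in the secretory stage of rats 1 to 4 and at 13.47, 13.23, 13.65 and 13.35 in the maturation stage. Every maturation value was above every secretory one, by 1.74 ± 0.12 (log2 fold change ± SE) or 3.35-fold, adjusted p = 4.7e-06 with limma. RT1-Db1, for the partner chain of RT1-Da, read 8.17, 8.06, 8.79 and 8.39 in the secretory stage and 10.39, 10.32, 10.89 and 10.36 in the maturation stage. The increase was 2.13 ± 0.17 or 4.39-fold, adjusted p = 1.5e-05 with limma. Rat 3 had the highest value in both stages.

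Cd74, the invariant chain that holds class II molecules free of peptide until they reach endosomes, read 8.42, 8.48, 8.69 and 8.46 in the secretory stage. In the maturation stage it read 10.70, 10.27, 10.66 and 10.40. The stages lay far apart beside the spread within each, with a difference of 1.999 ± 0.106, 3.996-fold, adjusted p = 9.4e-07 with limma. RT1-Ba, a chain of the class II molecule B, read 8.80, 8.74, 7.77 and 9.18, then 10.95, 10.81, 9.83 and 10.72. Its change, 1.95 ± 0.32 or 3.87-fold (adjusted p = 0.0013 with limma), was between 1.53 and 2.15 in the 4 rats, and rat 3 had the lowest value in both stages.

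The 3 other class II probes were near background. RT1-DOb, a chain of a modulator of peptide loading in B cells, was detected on 0 secretory and 3 maturation arrays. Its maturation values of 5.49, 5.46, 4.50 and 5.49 left rat 3 at the secretory level (4.43 to 4.63), and the difference was at least 1.14-fold with an adjusted p of 0.031 in limma. RT1-DOa (1.23-fold) and RT1-Ha (1.11-fold) did not pass the test, with adjusted p of 0.18 for each. Summed over the 7 class II probes, the linear normalized signal was 3934.65 to 5043.48 in the secretory stage and 13996.3 to 17336.7 in the maturation stage. RT1-Da, the brightest of these probes, made up most of the sum on every array.

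Among the cells that carry class II molecules, macrophages share their marker list here with other leukocytes, and many of its probes were higher in the maturation stage. Of 21 probes for macrophage and leukocyte markers, 20 were detected and 11 were called higher (52.4%), beside 4.60% of all probes. With no fold threshold, 15 were higher by the adjusted p (71.4%), beside 12.8% of all probes. The summed signal of the 21 probes was 5295.68 to 6506.73 in the secretory stage and 12853.8 to 16298.9 in the maturation stage. Cd68, a lysosomal protein of macrophages, was 4.56-fold higher, the lipopolysaccharide receptor Cd14 3.83-fold, the adaptor Tyrobp 2.87-fold and the pan-leukocyte gene Ptprc 1.89-fold. Aif1 (1.797-fold) and Emr1 (1.72-fold) were among those that missed only the fold threshold. The 6 probes that passed in neither direction were those of Itgam, Itgb2, Mpeg1, Cd163 and Mrc1 and an undetected probe of Lcp1. B cell markers had no call among 5 probes and 2 higher by the adjusted p alone (Blnk 1.64-fold and Cd79b 1.32-fold, the latter with an adjusted p of 0.032 that became 0.057 with the rat as a block), with a sum of 168.602 to 255.967 in the secretory and 203.985 to 242.87 in the maturation stage. Pax5 was detected on no array. Among 8 dendritic cell probes Itgax rose 2.03-fold, Cd1d1 fell, and Xcr1 was detected on no array. The summed signal of these 8 probes was 3583.7 to 3865.04 in the secretory stage and 1791.28 to 2052.3 in the maturation stage. Without Cd1d1, left out after its values were seen, the sums were 1227.97 to 1315.45 and 1048.27 to 1325.67 and overlapped. Among 10 T and NK cell probes only Nkg7 was called, 2.02-fold higher, and 4 were higher by the adjusted p. The part of these cells in the class II and class I values was not tested.

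The machinery that feeds class II molecules was read from genes outside the member list. The endosomal proteases Lgmn (4.51-fold) and Ctss (1.94-fold), which trim antigens and the invariant chain, were called higher. Of the 6 probes for class II peptide generation, 5 were higher by the adjusted p, and the one that did not pass read Cd63, a membrane protein of endosomes and no protease (1.15-fold). Of 6 probes for the factors that bind class II promoters, none was called. Rfx5 and Rfxap, subunits of the X box factor, were detected on no array, Rfxank fell by 0.38 on the log2 scale, and of the subunits of the Y box factor NF-Y, Nfyb rose by 0.50 and Nfyc fell by 0.43, all by the adjusted p alone.

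**Figure D2:**
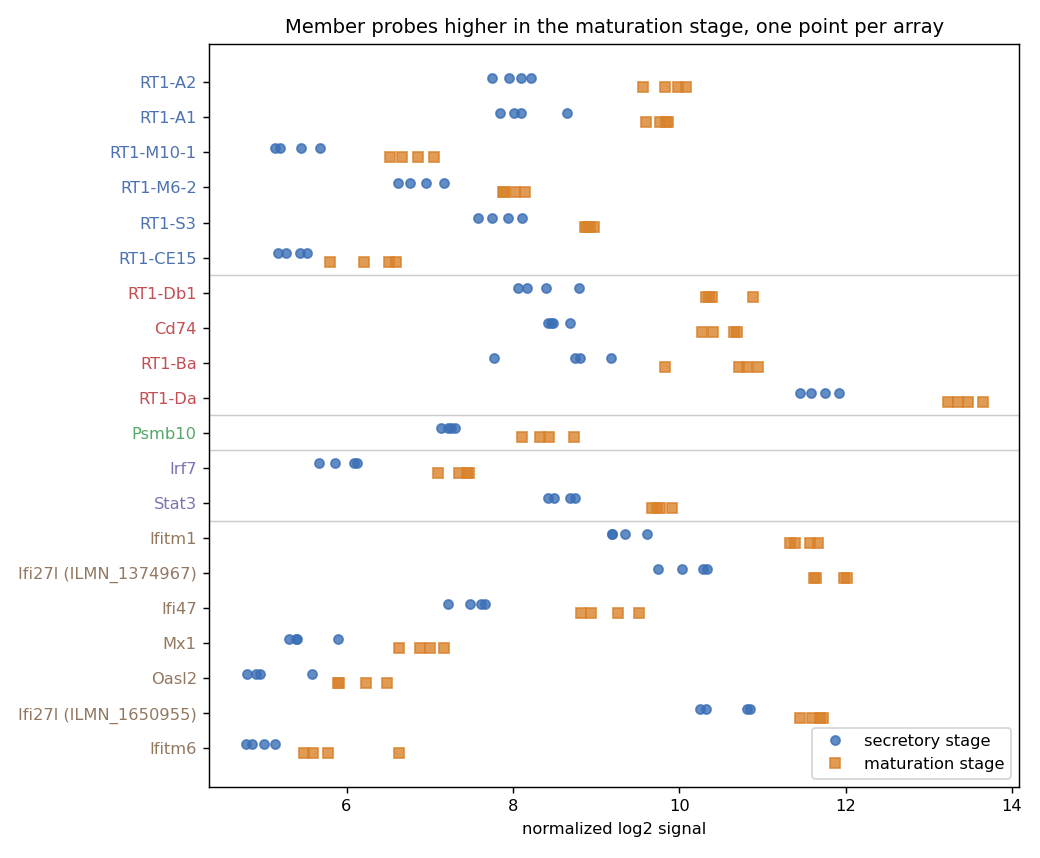
Normalized log2 signal (horizontal axis) of the 20 member probes called higher, with 1 point per array, circles for the 4 secretory-stage and squares for the 4 maturation-stage arrays, grouped by role from top to bottom as class I, class II, processing, transcription factors and effectors. The points of the stages do not overlap for any of the 20 probes, and the lowest maturation value lies closest to the highest secretory one for RT1-CE15 (5.80 and 5.53), Ifitm6 (5.49 and 5.14) and Oasl2 (5.90 and 5.59).

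Of the 30 class I probes, 6 were called higher, 6 more were higher and 1 was lower by the adjusted p alone, and 10 were detected on no array. All but RT1-CE3 and RT1-CE4, which were unplaced, and B2m were placed on chromosome 20 by the array annotation. A pair of classical class I genes had the largest differences. RT1-A2, a heavy chain, read 7.95, 8.10, 7.75 and 8.22 in the secretory stage and 10.08, 9.83, 9.57 and 9.98 in the maturation stage, a rise of 1.86 ± 0.13 or 3.63-fold (adjusted p = 5.8e-06 with limma). RT1-A1, also a classical heavy chain, read 7.84, 8.09, 8.66 and 8.01, then 9.77, 9.60, 9.84 and 9.87. It rose 3.07-fold with an adjusted p of 4.5e-05 in limma, and its highest secretory value, that of rat 3, was still below every maturation value. RT1-A3 rose 1.64-fold, which passed the adjusted p and not the fold threshold. Class I heavy chains are near-identical in sequence and differ between rats, so that 1 probe may read several genes and these values are uncertain as to the gene.

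The other 4 heavy chain genes called were RT1-M10-1, RT1-M6-2, RT1-S3 and RT1-CE15. RT1-M10-1 read 5.20, 5.46, 5.68 and 5.14, then 6.67, 6.86, 7.06 and 6.52 (2.65-fold), with rat 3 highest and rat 4 lowest in both stages. RT1-M6-2 read 6.62, 6.96, 6.77 and 7.17, then 8.03, 8.15, 7.88 and 7.90 (2.15-fold). RT1-S3, whose promoter is shown above, read 7.75, 8.11, 7.95 and 7.58, then 8.89, 8.87, 8.93 and 8.98 (2.10-fold). The adjusted p in limma was 6.2e-05, 8.3e-05 and 5.0e-05. RT1-CE15 read 5.45, 5.27, 5.53 and 5.18, then 6.59, 6.21, 5.80 and 6.51. Its 1.89-fold rise (adjusted p = 0.0022 with limma) fell below the fold threshold without the maturation array of rat 1 (log2 fold change 0.80) or of rat 4 (0.83).

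Of the 12 RT1-CE probes as a whole, 4 were detected on no array and 1, RT1-CE15, was called. RT1-CE16 (1.68-fold) and RT1-CE7 (1.46-fold) were higher by the adjusted p alone. RT1-CE10, detected on 0 secretory and 4 maturation arrays, was at least 1.02-fold higher and did not pass (adjusted p = 0.090 with limma). By the adjusted p alone RT1-149 (now RT1-T24-4) was 1.54-fold and RT1-M3 (now RT1-M3-1) 1.51-fold higher.

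B2m, the light chain shared by all class I molecules, read 13.86, 14.00, 13.82 and 13.83 in the secretory stage and 14.03, 14.02, 14.15 and 14.11 in the maturation stage. The stages did not overlap, yet the step was small, 0.20 ± 0.06 or 1.15-fold, with an adjusted p of 0.045 in limma. It no longer passed with the rat as a block (adjusted p = 0.10), when any array but the secretory array of rat 2 was left out (0.055 to 0.12), with cyclic loess (0.14), median scaling (0.084) or normexp without negative controls (0.14), or among probes detected on at least 4 arrays (0.053). RT1-Ke4, an MHC-linked gene that encodes the zinc transporter Slc39a7 and no antigen-presenting molecule, went the other way. It stood between 10.37 and 10.42 in the secretory and between 9.70 and 9.89 in the maturation stage and fell by 0.58 on the log2 scale (adjusted p = 5.9e-05 with limma). Among class I-like genes outside the member list, Procr rose 3.48-fold, Cd1d1, a presenter of lipids, fell 3.32-fold and the Fc receptor Fcgrt was 1.45-fold higher by the adjusted p alone.

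The 10 probes for antigen processing and loading moved together in small steps. All 10 were higher by the adjusted p, none overlapped between the stages, and the median log2 fold change was 0.50, but only 1 reached 1.8-fold. The weakest of them by adjusted p, Tapbp, no longer passed when any array but the maturation array of rat 1 was left out (highest adjusted p = 0.10 with limma) or with the methods' t-test (0.093), which Psmb9 also missed (0.057). The immunoproteasome subunit Psmb8 read 10.23, 10.18, 10.30 and 10.27, then 10.92, 10.78, 11.10 and 11.02 (1.64-fold, adjusted p = 8.2e-05 with limma). Psmb9 read 5.88, 5.18, 5.79 and 5.68, then 6.71, 6.16, 6.21 and 6.23 (1.62-fold, adjusted p = 0.012 with limma). Psmb10, the third subunit, has a pair of probes that disagree in size. One read 7.14, 7.22, 7.26 and 7.31, then 8.11, 8.43, 8.74 and 8.32 (2.25-fold, adjusted p = 5.9e-05 with limma), and the other read 10.55, 10.48, 10.56 and 10.66, then 10.84, 10.85, 11.02 and 10.95 (1.28-fold, adjusted p = 0.0026 with limma).

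The constitutive subunits that these replace were read beside them. Psmb5, replaced by Psmb8, was between 11.74 and 11.89 in the secretory and between 11.63 and 12.01 in the maturation stage and did not pass (1.001-fold, adjusted p = 0.99 with limma). Psmb6 and Psmb7, replaced by Psmb9 and Psmb10, were 1.14-fold and 1.27-fold higher by the adjusted p alone (0.019 and 0.0016 with limma). With the rat as a block, Psmb6 no longer passed (adjusted p = 0.0502). The difference in change between partner subunits was not tested.

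Psme1 and Psme2 form the PA28 cap of the proteasome. Psme1 read 12.53, 12.50, 12.64 and 12.57, then 13.01, 12.96, 13.16 and 13.05 (1.40-fold, adjusted p = 0.00030 with limma). Psme2 read 9.50, 9.60, 9.48 and 9.64, then 9.89, 9.75, 9.999 and 10.01 (1.28-fold, adjusted p = 0.0056 with limma). The array annotation places both on chromosome 15, the stages of neither overlapped, and the difference between their rises was not tested.

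Tap1 and Tap2 together form the peptide transporter. Tap1 read 6.32, 6.33, 6.25 and 6.29, then 6.78, 6.94, 6.94 and 6.80 (1.48-fold, adjusted p = 8.4e-05 with limma). Tap2 was not detected on any secretory array (4.60 to 4.81) and was detected on all 4 maturation arrays at 5.20, 5.09, 5.04 and 5.54, at least 1.13-fold higher (adjusted p = 0.0067 with limma). Tapbp, which bridges class I molecules to the transporter, read 8.33, 8.33, 8.34 and 8.21, then 8.38, 8.73, 8.86 and 8.55 (1.25-fold, adjusted p = 0.038 with limma). The thiol reductase Ifi30, which unfolds antigens for class II loading, rose 1.42-fold. Of the loading helpers outside the member list, Calr, Canx and Pdia3 did not pass the test (log2 fold changes of 0.08, 0.08 and -0.23), and Erap1, listed under its older symbol Arts1, was 1.37-fold higher by the adjusted p alone.

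**Figure D3:**
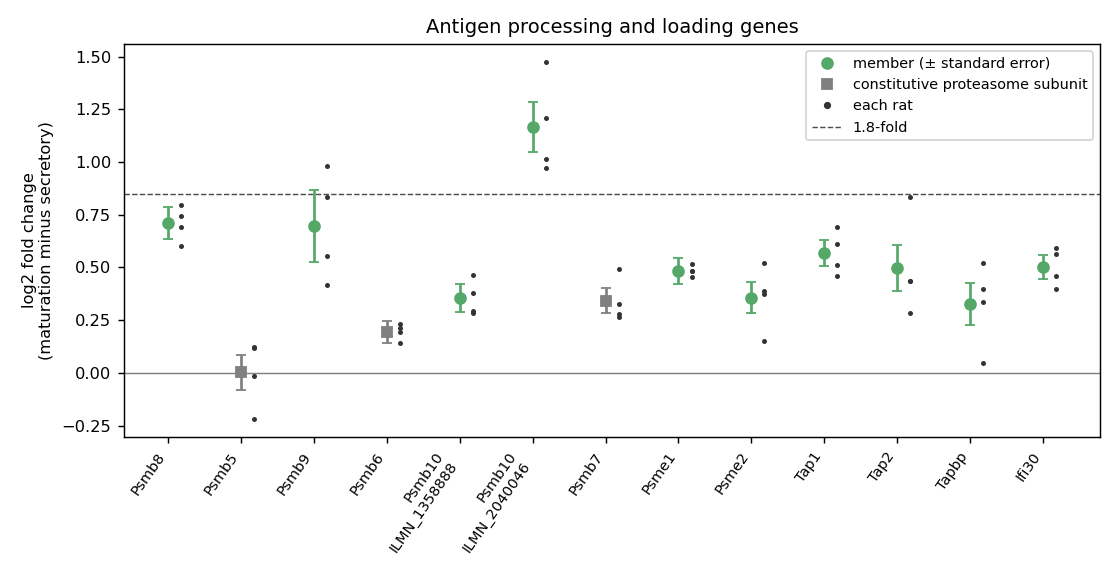
Log2 fold change (maturation minus secretory, vertical axis) of the 10 member probes for processing and loading and of 3 constitutive proteasome subunits, with bars for 1 standard error and a small dot for each of the 4 rats. All dots of the member probes lie above 0, only the 2.25-fold probe of Psmb10 passes the 1.8-fold line on average, and Psmb5 straddles 0.

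Of 16 probes for Irf and Stat factors, 2 were called higher, 5 more were higher and 1 was lower by the adjusted p alone, and 5 were detected on no array. Irf7, the factor that amplifies type I interferon responses, read 6.13, 5.66, 5.86 and 6.09, then 7.10, 7.47, 7.35 and 7.45 (2.65-fold, adjusted p = 2.0e-05 with limma). Stat3, which carries the signals of interleukin-6 and interleukin-10 family cytokines, read 8.42, 8.74, 8.69 and 8.50, then 9.73, 9.77, 9.91 and 9.67 (2.27-fold, adjusted p = 8.0e-06 with limma). In both, the gap between the stages was wider than the spread within either stage.

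Irf1, an early target of interferon gamma, read 10.001, 9.99, 10.08 and 10.13, then 10.77, 10.67, 10.80 and 10.84 (1.64-fold, adjusted p = 1.9e-05 with limma). It missed the fold threshold with a narrow spread in each stage. Stat5b (1.69-fold) and the macrophage-associated Irf5 (1.58-fold) were also higher by the adjusted p alone. Stat4 was detected on no secretory and on 3 maturation arrays and was at least 1.08-fold higher (adjusted p = 0.045 with limma; 0.089 with the rat as a block).

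Irf3, the constitutive sensor-linked factor, fell. Its values lay between 12.23 and 12.30 in the secretory and between 11.68 and 11.76 in the maturation stage, a drop that passed the adjusted p (3.5e-05 with limma) at 1.46-fold. Stat2, which acts in type I responses, has a detected probe with 6.56, 6.73, 6.95 and 6.73, then 6.78, 7.13, 7.24 and 6.87, which did not pass (1.20-fold, adjusted p = 0.15 with limma; 0.028 with the rat as a block), and a probe detected on no array. Irf2, Irf4, Irf8 and Stat6 were detected on no array. Irf8, a factor of macrophages and dendritic cells, lay between 4.43 and 4.75 and Stat6, which carries interleukin-4 signals, between 4.56 and 4.80 over all arrays.

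Upstream of these factors, the genes for Ifnb1 and Ifna1 (both probes) were detected on no array and Ifng on 3 arrays of each stage, with no difference that passed (1.04-fold, adjusted p = 0.74 with limma). The receptor chain Il10rb, shared by interleukin-10 and type III interferon receptors, was called higher at 3.29-fold, and Ifngr1 (1.42-fold) and Ifngr2 (1.54-fold) were higher by the adjusted p alone. Among the kinases, Jak3 rose 4.21-fold, Jak2 fell 2.03-fold and Jak1 was 1.60-fold higher by the adjusted p alone. Of the sensors of nucleic acids, Ifih1 rose 2.92-fold and Zbp1, not detected in the secretory stage, at least 1.52-fold. Over the 74 probes of this wider pathway list, 10 were called higher (13.5%) and 2 lower, beside 4.60% and 3.15% of all probes. With no fold threshold, 29 were higher (39.2%) and 9 lower by the adjusted p, beside 12.8% and 14.0% of all probes.

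The 31 probes for interferon-induced effectors were split. Of these, 7 were called higher, 3 more were higher and 1 was lower by the adjusted p alone, 8 were detected on no array, and the median log2 fold change was 0.10. The membrane proteins of the Ifitm group, which block viral entry, held the largest fitted log2 fold change of the 94 members. Ifitm1 read 9.19, 9.19, 9.35 and 9.61, then 11.33, 11.57, 11.67 and 11.39 (2.15 ± 0.11, 4.45-fold, adjusted p = 8.1e-07 with limma). Ifitm3 read 12.46, 12.66, 12.84 and 12.74, then 13.15, 13.27, 13.23 and 13.37 (1.496-fold, adjusted p = 0.00077 with limma). Ifitm6 read 4.87, 5.14, 5.01 and 4.80, then 6.63, 5.49, 5.78 and 5.60. Its 1.89-fold rise (adjusted p = 0.012 with limma) leaned on the maturation array of rat 1, without which it was 0.65 on the log2 scale and below the fold threshold. Ifitm5, best known from bone-forming cells, was 6.21 and 6.49 in the secretory stage of rats 3 and 4 and between 4.41 and 5.05 on the other arrays, with no difference that passed.

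Ifi27l (now Ifi27), a small mitochondrial protein induced by type I interferon, has a pair of probes. One read 9.75, 10.33, 10.04 and 10.29, then 11.61, 12.02, 11.65 and 11.97 (3.28-fold, adjusted p = 1.9e-05 with limma), and the other read 10.33, 10.82, 10.25 and 10.85, then 11.46, 11.69, 11.60 and 11.72 (2.08-fold, adjusted p = 0.00041 with limma). Both were called, with different sizes. Ifi47, an interferon-inducible GTPase, read 7.22, 7.48, 7.67 and 7.62, then 8.82, 8.94, 9.51 and 9.26 (3.11-fold, adjusted p = 4.1e-05 with limma). Its relative Igtp, outside the member list, rose 2.01-fold.

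Mx1, a GTPase against influenza-like viruses, read 5.40, 5.31, 5.90 and 5.40, then 6.63, 6.88, 7.01 and 7.17 (2.67-fold, adjusted p = 7.6e-05 with limma). Oasl2, of the oligoadenylate synthetase family, was detected on 1 secretory array and read 4.80, 5.59, 4.96 and 4.91, then 5.91, 6.24, 6.49 and 5.90 (2.10-fold, adjusted p = 0.0020 with limma). No other of the 11 Oas probes was called. Oas1 (now Oas1a), which makes the activator of RNase L, read 4.56, 4.82, 4.48 and 4.49, then 4.98, 4.77, 5.09 and 4.93 and was detected on 0 secretory and 2 maturation arrays, with an adjusted p of 0.019 in limma (0.057 with the rat as a block). Oas2 went down, from 4.78, 5.31, 5.19 and 5.01 with 2 arrays detected to 4.62, 4.55, 4.42 and 4.60 with none, at least 1.09-fold lower (adjusted p = 0.0052 with limma). Of the Oas probes, 5 were detected on no array.

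The Gbp and Ifit groups held no call. Gbp2, a GTPase strongly induced by interferon gamma, read 9.38, 9.37, 9.54 and 9.51, then 9.63, 9.22, 9.61 and 9.49, and the stages overlapped (1.03-fold, adjusted p = 0.85 with limma). Ifit3, among the genes most induced by type I interferon, was detected on no array (4.47 to 4.70 over all arrays), nor was Ifit2. The probe for Ifit1 read 5.31, 4.56, 5.67 and 5.16, then 5.84, 4.66, 5.17 and 5.43 (1.07-fold, adjusted p = 0.87 with limma). A probe labelled Ifit1 that reads the related Ifit1bl was at 5.60, 6.31, 5.97 and 5.48, then 5.62, 5.10, 5.37 and 5.44, a difference of -0.45 that did not pass (adjusted p = 0.11 with limma). The probe listed under G1p2, an older symbol of Isg15, lay outside the rule and was detected on no array, between 4.63 and 4.95. Among other interferon targets outside the member list, Cxcl9 and Cxcl10 did not pass and the probes for Usp18 and Pml were detected on no array, while Lgals3bp rose 2.70-fold and Samhd1 at least 1.35-fold.

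Since both stages came from each rat, and since RT1 genes vary between outbred rats, the members were also tested for a difference between rats in a fit of stage and rat. Of the 94 members, 1 was called at an adjusted p below 0.05, beside 0.0400% of all probes (9 probes). At an unadjusted p below 0.05 the number was 19, beside 8.47% of all probes. The member called was Mx2, the sister gene of Mx1. It read 5.19, 4.98, 6.51 and 6.38 in the secretory stage of rats 1 to 4 and 5.19, 5.16, 6.83 and 6.70 in the maturation stage, so that rats 3 and 4 were above rats 1 and 2 in both stages (adjusted p = 0.015 between rats, limma). Between the stages it did not pass (1.15-fold, adjusted p = 0.85). The call between rats was lost without rat 2, 3 or 4 (adjusted p = 0.19, 0.16 and 0.14).

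Another 3 members that were not called kept at least part of the order of the rats in both stages and are named here after their values were seen. Ifi44 read 7.16, 9.02, 8.86 and 7.78, then 7.71, 8.73, 9.05 and 7.85, with rats 2 and 3 high. RT1-N2, a class I gene, read 5.36, 6.27, 5.70 and 6.16, then 5.60, 6.30, 5.86 and 6.13, with rat 1 lowest. RT1-Ba was lowest in rat 3, as given above. Their adjusted p between rats was 0.17, 0.26 and 0.33 in limma. A difference in the sequence under a probe and a difference in the amount of RNA cannot be told apart with these arrays.

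**Figure D4:**
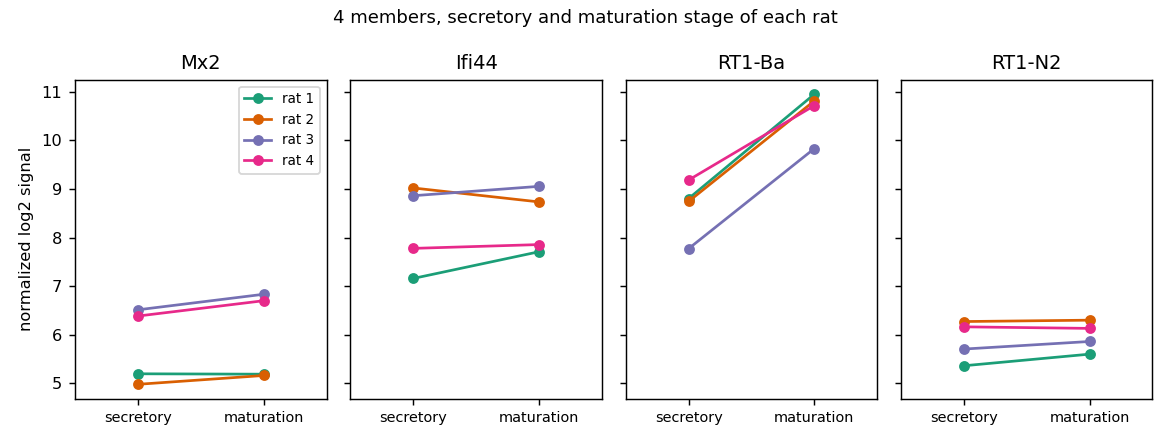
Normalized log2 signal (vertical axis) of Mx2, Ifi44, RT1-Ba and RT1-N2 in the secretory and the maturation stage, with 1 line per rat. The lines of Mx2 run level in a high pair (6.38 to 6.83) and a low pair (4.98 to 5.19), and all 4 lines of RT1-Ba climb while that of rat 3 stays lowest.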

How the data were processed

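Total RNA of 8 enamel organ samples was amplified, labelled with biotin and hybridized to RatRef-12 v1 arrays. The deposited table gives, per probe and array, a mean bead intensity that the authors neither corrected nor normalized, a detection p-value, the bead standard error (median 3.37% of the mean for the members) and the number of beads (22 to 81). Per the methods, the authors normalized these signals in R for their own tests, which were not used here. The bead summary software and the genome build are not given in the sources used here. Titles, descriptions and tissue labels gave stage and rat. For maturation replicates 2, 3 and 4 the source field says secretory, which was set aside because the other fields disagree with it.

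With R 4.3.3 and limma 3.58.1, neqc (controls inferred from the detection p-values, offset of 16) corrected, quantile-normalized and log2-transformed all 22523 probes, and lmFit and eBayes compared the stages without pairing, as the methods name none. Differences between rats came from an F test of the rat terms beside stage. Both fits were tested on simulated data. Detection meant a deposited p-value below 0.05. Where a stage had no array with detection, the fold is then a lower bound, from the bright group's mean over, on each array, the higher of its own value and the lowest normalized value among detected probes, and it keeps the adjusted p of the fit. Sums of a list add the normalized signals on the linear scale.

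Each rat gave both stages, so replicate numbers pair the samples. Over 11233 probes, deviations from the stage means correlated at 0.195, 0.129, 0.219 and 0.234 within a rat, and from -0.0799 to -0.0406 (means) between rats. Blocking on the rat was tried as an alternative.

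Members and lists were chosen with earlier results of these data known, and so support nothing independently. Values on every array are given for the defining genes of each role, for every member called between stages or rats and for the largest rise and fall of each role among probes detected on at least 4 arrays. RT1-DMa, like Isg15 and Ciita, had no probe by symbol. G1p2, the members named beyond that rule, such as RT1-DOb, Ifi44, RT1-N2 and Ifitm5, and the genes picked from the marker and pathway lists, were named after their values were seen. A table of the GRCr8 assembly gave current symbols by gene ID for 93 of 94 member probes (17430 of 22523). Chromosomes are those of the array annotation. The Y box letters were chosen after the promoters had been seen. Probe sequences are not shown here, and the values of some members and markers, though counted, are not reported here. Alternatives were cyclic loess, median scaling, other background corrections, an offset of 50, a detection filter, the methods' t-test, the rat block, other thresholds and each array or rat left out. Counts and figures used Python 3.11.15, pandas 2.3.3 and matplotlib 3.10.9. The miRNA, luciferase and in situ parts of the study were not analysed here.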

Additional observations from a re-analysis of the deposited data

Results flagged for a closer look

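In 6 of the 133 sets of 4 values of 1 stage that were looked at among detected members, 1 array stood far from the other 3 by Dixon's test at its 95% critical value. Chance alone gives about 6.65 such sets. In the secretory stage these were Mx1 in rat 3 (5.90, against 5.31 to 5.40) and Tapbp in rat 4 (8.21, against 8.33 to 8.34). In the maturation stage, rat 1 stood apart for Psmb9 (6.71, against 6.16 to 6.23). Rat 3 stood apart for RT1-Db1 (10.89, against 10.32 to 10.39), for RT1-M3 (6.96, against 6.69 to 6.72) and for RT1-DOb (4.50, against 5.46 to 5.49). All are normalized log2 signals.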

How the results depend on the processing

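The count of 20 members higher in the maturation stage was 11 without background correction, 31 with median scaling and 44 without the fold threshold. The count of 0 members called lower was 3 without the fold threshold. With each array left out, 18 to 22 members were higher and 0 lower. With the rat as a block, the pairing the samples have, 20 were higher and 0 lower, and no call of a named gene changed at both thresholds. By the adjusted p alone the block lost B2m (0.10), Oas1 (0.057) and Stat4 (0.089) and gained Stat2 (0.028) and Oas1i (0.049). The methods' t-test gave 19 higher. Median scaling moved the split of all called probes from 59.3% to 77.6% higher and called 7.15% of all probes higher, against 4.60% in the main setting and 2.34% without background correction. The 1 member that differed between rats became 5 without background correction (Ifi27l, Ifi44, Mx2, RT1-Ba and RT1-Db1) and 0 with cyclic loess (adjusted p of Mx2 0.071). With 1 rat left out it was 0 to 1, and 0 without rat 2, rat 3 or rat 4. Of 715 values of 45 named probes, 691 kept their side of the thresholds, 19 fell below, 5 rose above and 0 reversed. Without background correction, RT1-M10-1 (0.60), RT1-M6-2 (0.72), RT1-S3 (0.84), RT1-CE15 (0.36), Psmb10 (0.83), Irf7 (0.73), Mx1 (0.64), Oasl2 (0.39) and Ifitm6 (0.33) had log2 fold changes under the threshold. RT1-CE15, Oasl2 and Ifitm6 also fell under it with an offset of 50 or normexp without negative controls, and Ifitm6 missed the adjusted p (0.058) with the methods' t-test. Irf1, Psmb8 and Psmb9 were among those that passed it with median scaling. Signal over background limits the values, since 23 members were detected on no array. The causes of these shifts were not tested.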
